A study of Mus musculus with 51 samples.

Results

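Paraxial mesoderm gives rise to the somites, and its progenitors leave the primitive streak as presomitic mesoderm under the influence of WNT, FGF and T-box factors. The set described here holds 8 genes known from this lineage, *Msgn1*, *Foxc1*, *Foxc2*, *Foxb1*, *Tcf15*, *Meox1*, *Pcdh8* and *Ripply2*, out of 24538 genes in each of 9 expression tables. They were chosen by gene symbol, and all 8 were found in all 9 tables. RNA-seq values covered F1G4 mouse ES cells (WT) and the cells derived from them on days 1, 2 and 3 of differentiation with Bmp4 at 20 ng/ml. Bmp4 was given to cells from hanging drops that were plated on fibronectin. The paper defines its ES stage as that of embryoid bodies, the aggregates from these drops before Bmp4. It is called ES cells below. Cells of the F1G4 background lacking *Eomes* (*Eomes* KO), *T* (*T* KO) or both (*Eomes*/*T* dKO) were profiled on days 2 and 3. In these lines the promoter and first exon of the gene were removed with paired Cas9 nickases. Single clones of edited cells were expanded, and the dKO line was made from *Eomes* KO cells. *Smad4* KO cells of a 129S/SvEvxC57BL/6 background, a single clone in which Cre had removed the floxed first exon of *Smad4*, were profiled on days 1 and 2 with their unexcised parental line, called *Smad4* WT. Feeder fibroblasts had been removed from all lines before differentiation, and all differentiating cells, controls included, received Bmp4.

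In the embryo, *Msgn1* encodes a bHLH factor that drives presomitic mesoderm differentiation and is known as a target of WNT signaling and Tbx6. *Foxc1* and *Foxc2* encode forkhead factors that act together in paraxial mesoderm and somite formation, and *Foxb1* encodes a forkhead factor of early mesoderm and the neural tube. *Pcdh8* encodes a protocadherin of the presomitic mesoderm, and *Ripply2* a co-repressor that acts where somite boundaries form. *Tcf15* and *Meox1* encode a bHLH and a homeodomain factor of the somites, and *Tcf15* is known in ES cells as well.

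Each table held a single FPKM per gene and condition, a read count scaled to transcript length and library size that the authors had computed over the samples of that condition. The spread between replicates and the depth were therefore unknown, and no SD, interval or test stands behind the differences. Genes with FPKM above 1 in either of the compared columns were examined. A gene was called higher or lower when the log2 ratio was above 1 or below −1. A gene below FPKM 1 in one column is examined only through the other, and can be called in that direction only. This holds for every called member except *Tcf15* in the WT course and on day 2, and *Foxb1* in the *Eomes* KO on day 3. The columns held 10416 to 11248 genes above FPKM 1, and their FPKM summed to 401510 to 608585. The tables of *Eomes* KO, *T* KO and dKO cells share their WT columns, which equalled those of the time course up to a constant of 0.989 to 1.04, so that these comparisons are not independent. Log2 ratios of all examined genes spread most widely for 2 columns, *T* KO on day 2 and *Eomes* KO on day 3, where the middle 50% spanned 0.837 and 0.839, against 0.348 to 0.670 in the other 6 KO comparisons. Across 8949 genes above FPKM 2 in all 4 columns concerned, which come from libraries of different lines and days, the ratios of these comparisons had a Pearson r of 0.56. Rescaling FPKM to TPM, a share of all transcripts, moved the median log2 ratio of all genes by more than 0.1 in 5 KO comparisons, to between −0.43 and 0.27. It changed the share of higher genes among all called genes from 44.5% to 27.1% for the *Eomes* KO on day 2, from 45% to 72% for the *Eomes* KO on day 3, from 36.5% to 52% for the *T* KO on day 2 and from 43.6% to 13% for the dKO on day 2. The direction of every called member was kept.

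The targeted genes were checked first. *Eomes* stood at 2.42 in *Eomes* KO cells against 9.42 in WT cells on day 2, and at 0.276 against 20.3 on day 3. In *T* KO cells *T* stood at 6.64 against 44.8 on day 2 and at 3.00 against 323 on day 3. In the dKO *Eomes* stood at 1.24 and 0.346 and *T* at 2.77 and 1.93 on days 2 and 3. *Smad4* was not lower in the cells labelled *Smad4* KO, with 39.4 against 33.8 on day 1 and 46.8 against 39.3 on day 2. This value sums over the whole transcript, of which the deletion removed the first exon, so it does not check that label.

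Of the 8 genes, 4 exceeded FPKM 1 in at least 1 of the 14 distinct conditions (*Msgn1*, *Foxb1*, *Tcf15* and *Pcdh8*). The other 4 stayed below 1 in every condition, with a highest value of 0.776. *Tcf15* was above 1 in 13 conditions, *Pcdh8* in 7, *Foxb1* in 4 and *Msgn1* in 1, which was WT on day 3. The name of the set describes their known role in the embryo, and the markers read beside it do not establish the cell type. On day 3 in WT cells, 4 of 7 presomitic markers stood above 1 (*Msgn1*, *Dll1*, *Dll3* and *Lfng*), and *Msgn1* is itself a member. *Lfng* was above 1 in all 14 conditions, *Dll1* in 8 and *Dll3* in 5. Each of these had its highest value in the cells labelled *Smad4* KO on day 1. *Tbx6* stood at 0.738 in WT cells on day 3, *Mesp2* at 0.0391, and *Hes7* was listed at 0. Of 5 somite markers, which include the members *Tcf15* and *Meox1*, only *Tcf15* was above 1 on that day. *Meox2*, *Pax3* and *Uncx* did not exceed 0.165 in any condition. In bulk samples a lower value can mean fewer cells of a type or less RNA per cell, which cannot be told apart here.

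**Figure D1:**
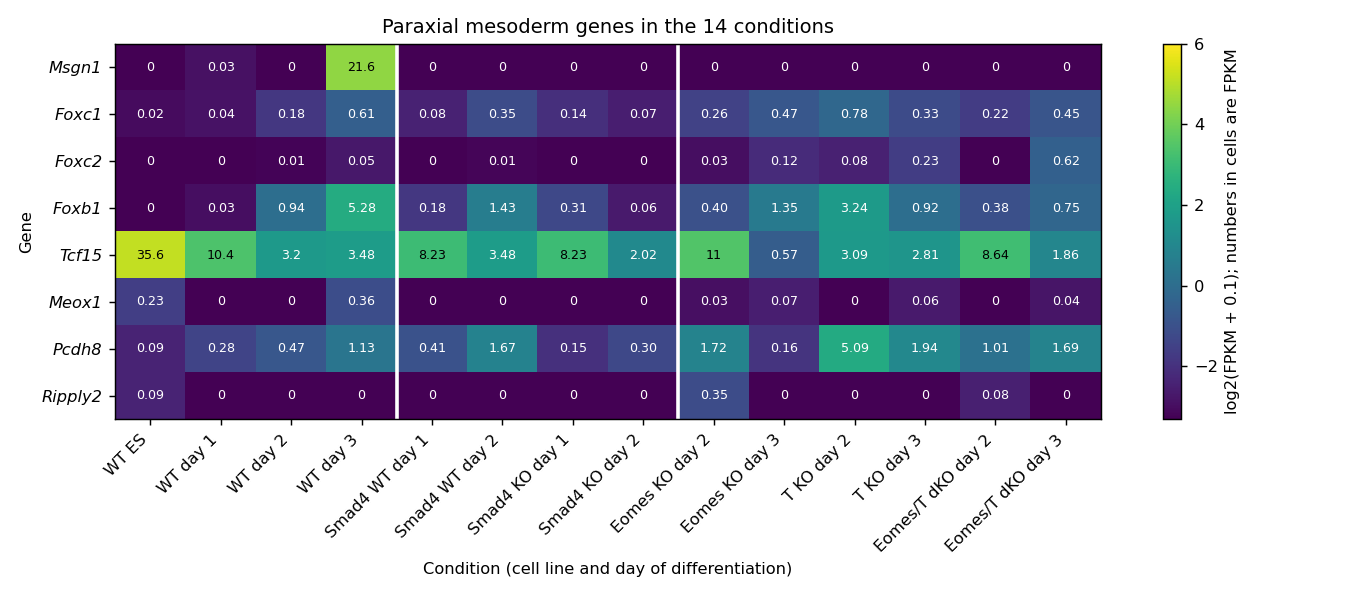
FPKM of the 8 genes (rows) in the 14 distinct conditions (columns), with the colour giving log2(FPKM + 0.1) and the FPKM printed in each cell; white lines separate F1G4 WT, the *Smad4* line and the F1G4 KO lines. *Msgn1* is bright on WT day 3 only, *Tcf15* is brightest in ES cells, and the rows of *Foxc1*, *Foxc2*, *Meox1* and *Ripply2* stay below 1.

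*Msgn1* lies on the minus strand of chromosome 12 (chr12:11208382-11208948, GRCm38) and is annotated by RefSeq as a single exon of 567 bases. *Pcdh8* lies on the minus strand of chromosome 14 (chr14:79766772-79771312) and overlaps the antisense lncRNA *Gm9748*. Libraries were strand-specific, but whether the counting used the strand is not stated, so that reads of both transcripts may not be separated, and the same holds for *Ripply2* (chr9:87015537-87020441) and *Gm51687*. *Foxc1* (chr13:31806646-31810635), *Foxc2* (chr8:121116171-121118895), *Foxb1* (chr9:69757710-69760940), *Tcf15* (chr2:152143056-152149097) and *Meox1* (chr11:101877510-101894354) overlapped no other RefSeq gene. Sequence before the annotated start, from RefSeq (GRCm38.p6), was at hand for *Msgn1*, *Foxc1*, *Pcdh8* and *Ripply2*, and was not analysed here for *Foxc2*, *Foxb1*, *Tcf15* and *Meox1*. In the 250 bases before to 50 bases after the start, both strands were searched for the T-box site AGGTGTGA, the TCF/LEF sites CTTTGAT and CTTTGTT and the Smad1/5 site GGCGCC. Among 32851 promoters these were present in 1.28%, 3.73%, 5.85% and 11.9%, respectively. The *Msgn1* window held 1 match to CTTTGAT, read as ATCAAAG 203 bases before the start. The *Pcdh8* window held CTTTGTT, read as AACAAAG 178 bases before the start, and GGCGCC just inside the transcript. GGCGCC also occurred 216 bases before *Foxc1* and 106 bases before *Ripply2*, and AGGTGTGA was in none of the 4 windows. The upstream windows of *Msgn1* and *Pcdh8* are shown because they belong to members that were called in the KO lines and hold a TCF/LEF match, given in capitals. They are printed 5′ to 3′ on the strand of the gene, for *Msgn1* without the last 30 bases before the start. A match of letters is a description of the sequence and does not show binding.
Msgn1, chr12:11208979-11209198, minus strand: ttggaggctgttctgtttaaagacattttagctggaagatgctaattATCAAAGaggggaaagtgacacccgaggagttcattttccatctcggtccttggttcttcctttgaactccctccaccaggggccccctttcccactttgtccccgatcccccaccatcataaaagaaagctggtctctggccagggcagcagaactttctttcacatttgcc
Pcdh8, chr14:79771313-79771562, minus strand: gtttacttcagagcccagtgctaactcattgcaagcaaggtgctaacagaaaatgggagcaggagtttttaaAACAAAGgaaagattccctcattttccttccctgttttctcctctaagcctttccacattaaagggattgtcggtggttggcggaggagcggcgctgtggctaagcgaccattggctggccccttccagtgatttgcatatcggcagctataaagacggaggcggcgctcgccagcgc

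During WT differentiation the 4 measurable genes followed different courses. *Msgn1* appeared on day 3, *Foxb1* and *Pcdh8* increased over the course, and *Tcf15* declined from its maximum in ES cells. The FPKM of *Msgn1* was 0 in ES cells, 0.0343 on day 1, again 0 on day 2 and 21.6 on day 3. It was 1 of 9 genes that were listed at 0 on day 2 and exceeded FPKM 1 on day 3, and among these it reached the highest value. The others included *Mesp1*, a factor of early cardiac mesoderm, at 5.45. *Foxb1* was listed at 0 in ES cells and stood at 0.0260, 0.943 and 5.28 on days 1, 2 and 3, a log2 ratio of 2.49 between days 2 and 3. *Pcdh8* stood at 0.0920, 0.277, 0.471 and 1.13 in ES cells and on days 1, 2 and 3, with a log2 ratio of 1.26 in the last step. This value is close to the FPKM minimum, and the call was lost with a pseudocount of 1 (log2 0.53).

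*Tcf15* had its maximum of 35.6 in ES cells, with 10.4, 3.20 and 3.48 on the following days. Its log2 ratio was −1.77 from ES cells to day 1, −1.70 from day 1 to day 2 and 0.12 from day 2 to day 3, so that its decline ended before *Msgn1* appeared. Relative to ES cells, 1 member was examined on day 1 and was lower, beside 5.84% of all examined genes lower and 7.7% higher. Between days 1 and 2 again *Tcf15* alone was examined and was lower, beside 4.13% lower and 7.18% higher. Between days 2 and 3, 3 of 4 examined members were higher (*Msgn1*, *Foxb1* and *Pcdh8*) and none was lower, beside 6.14% of all genes higher and 4.06% lower. All 3 were below FPKM 1 on day 2 and were examined through their day 3 value. Among genes whose higher value lay between FPKM 1 and 2, as for *Pcdh8*, 16% were higher.

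Among the members below FPKM 1, *Foxc1* stood at 0.0224, 0.0366, 0.183 and 0.608 in ES cells and on days 1, 2 and 3. *Foxc2* was listed at 0 up to day 1 and stood at 0.00666 and 0.0506 on days 2 and 3. *Meox1* had 0.230 before differentiation, was listed at 0 on days 1 and 2 and stood at 0.359 on day 3. *Ripply2* stood at 0.0913 in ES cells and was listed at 0 on days 1, 2 and 3. *Foxc1*, *Foxc2* and *Meox1* thus had their highest WT value on day 3, all under the minimum used for calls.

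**Figure D2:**
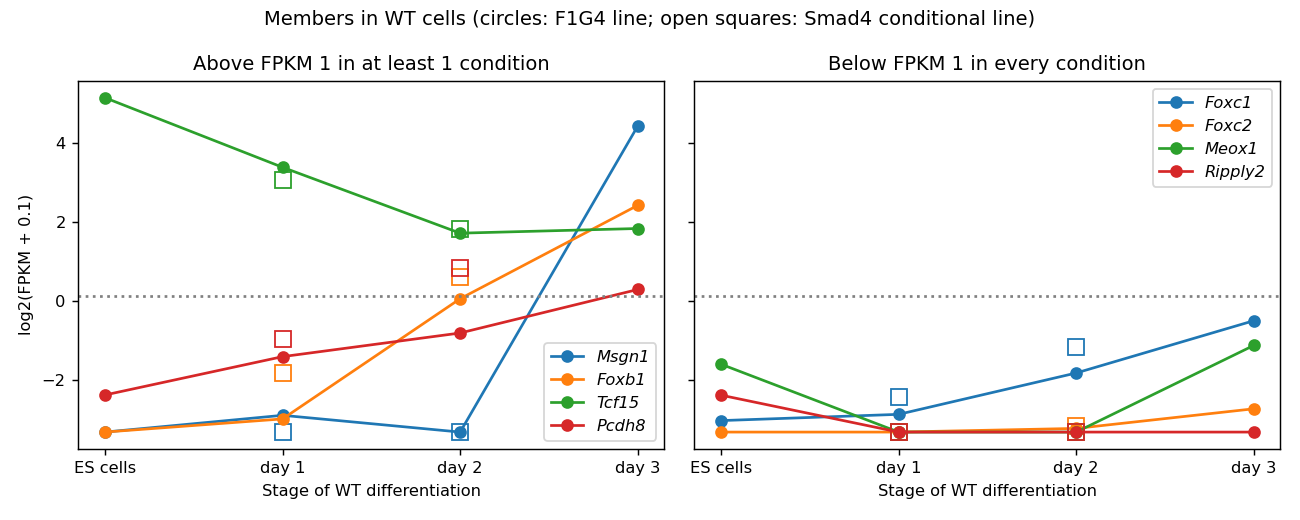
Log2(FPKM + 0.1) of the members in WT cells by stage, for the 4 genes above FPKM 1 in at least 1 condition (left) and the 4 below it in every condition (right); filled circles are F1G4 cells, open squares are the unexcised *Smad4* line on days 1 and 2, and the dotted line marks FPKM 1. *Msgn1* goes from 0 on day 2 to 21.6 on day 3 while *Tcf15* goes from 35.6 in ES cells to 3.48 on day 3.

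The unexcised *Smad4* line and F1G4 cells are both without a KO. Their difference gives the only measure of how far columns of cells without a KO can lie apart. It includes any difference between the 2 lines, such as the floxed *Smad4* alleles of 1 line. It is taken across tables, after scaling to a median ratio of 1. *Tcf15* differed little, with 10.4 in F1G4 and 8.23 in *Smad4* WT cells on day 1 and 3.20 and 3.48 a day later, log2 differences of −0.30 and 0.14. *Foxb1* stood at 0.943 and 1.43 on day 2 (log2 0.62). *Pcdh8* stood at 0.471 and 1.67 on day 2, a log2 difference of 1.85, and was the only member past the threshold. *Msgn1*, *Meox1* and *Ripply2* were listed at 0 in both lines on day 2. Over all examined genes, 11% were past the threshold between these lines on day 1 and 5.08% on day 2. On day 2 the share was 15% among genes whose higher value lay between FPKM 1 and 2, and 1.8% above FPKM 20.

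The *Smad4* comparison asks which genes depend on SMAD signaling in early mesoderm. On day 1 *Tcf15* was the only member examined, and it stood at 8.23 in both columns (log2 ratio 0.00), so no member was called. In this comparison 2.41% of genes were lower and 2.36% higher in the cells labelled *Smad4* KO. On day 2, 2 of 3 examined members were lower (*Foxb1* and *Pcdh8*) and none higher, beside 3.21% of genes lower and 2.56% higher. Among genes whose higher value lay between FPKM 1 and 2, as for both of these, 8.3% were lower. *Foxb1* stood at 1.43 in WT and 0.0582 in KO cells (log2 −4.62). *Pcdh8* stood at 1.67 and 0.304 (log2 −2.46). Its reference value here was itself above that of F1G4 WT cells on day 2, at 0.471, the log2 difference of 1.85 given above. *Tcf15* stood at 3.48 and 2.02 (log2 −0.78) and was not called. Below the minimum, *Foxc1* on day 2 had 0.349 in WT and 0.0725 in KO cells, and *Foxc2* at 0.0104 and 0.

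Beside these members, nascent mesoderm genes were lower in the cells labelled *Smad4* KO on day 2 (6 of 6 examined, of 9 listed, median log2 −3.56 against −0.01 over all examined genes), with *T* at 26.6 and 0.891. Of the 17 presomitic and segmentation clock genes 9 were examined, 4 were lower (*Fgf8*, *Axin2*, *Rspo3* and *Nkd1*) and 1 was higher (*Cyp26a1*). *Fgf8*, a ligand made in the streak and tailbud, went from 19.8 to 0.154, and *Axin2*, a feedback inhibitor and readout of WNT signaling, from 9.72 to 0.945. *Cyp26a1*, which degrades retinoic acid, stood at 0.399 and 3.20. Neural genes were higher in 5 of 6 examined cases, with *Pax6* at 0.378 and 10.4. Naive pluripotency genes were lower in 6 of 6 examined cases (median log2 −1.53), with *Nanog* at 121 and 26.8 and *Zfp42* at 14.0 and 5.38. The part of these shifts in the members' values was not tested. On day 1 the same presomitic list had 1 lower gene (*Dkk1*) and 4 higher genes (*Ripply1*, *Lfng*, *Dll3* and *Dll1*) among 9 examined. *Dll3*, a modulator of Notch signaling, stood at 1.78 in WT and 4.14 in KO cells.

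Without *Eomes*, the T-box factor of the early streak, *Tcf15* and *Pcdh8* were higher on day 2, and all 4 measurable members were lower on day 3. On day 2, 2 of 2 examined members were higher, beside 3.35% of genes higher and 4.17% lower. The share of higher genes was 8.52% between FPKM 1 and 2, where *Pcdh8* lay, and 2.23% between 5 and 20, where *Tcf15* lay. *Tcf15* stood at 3.17 in WT and 11.0 in KO cells (log2 1.80), so that the KO value on day 2 lay near the WT value of day 1. *Pcdh8* stood at 0.466 and 1.72 (log2 1.88), a difference of about the size seen between the lines without a KO. Its call was lost with a pseudocount of 1 (log2 0.89). *Foxb1* stood at 0.941 and 0.402 and was not examined, but was called lower in TPM (log2 −1.44). In the same comparison the neural genes *Sox1*, *Pax6* and *Sox2* were called higher, and their part in the members' values was not tested. *Ripply2* stood at 0.352 in these KO cells, its highest value of all conditions, and was listed at 0 in WT.

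On day 3, 4 of 4 examined members were lower in *Eomes* KO cells and none was higher, beside 9.01% of genes lower and 7.39% higher. Between FPKM 1 and 2, where *Pcdh8* lay, 12.2% of genes were lower. *Msgn1* stood at 22.5 in WT and was listed at 0 in KO cells. *Tcf15* stood at 3.64 and 0.572, its lowest value of all conditions (log2 −2.67). *Foxb1* stood at 5.50 and 1.35 (log2 −2.03), and *Pcdh8* at 1.17 and 0.164 (log2 −2.84, or −0.90 and not called with a pseudocount of 1). *Meox1* stood at 0.372 and 0.0742, *Foxc1* at 0.634 and 0.472 and *Foxc2* at 0.0524 and 0.120, all under the minimum. This column is 1 of the pair with the widest spread of ratios over all genes. The summed FPKM of 8 feeder fibroblast markers was 11.1 in this column and 6.96 in WT on day 3 of the time course. *Fbln1* alone held 6.72 and 4.95 of these sums. *Col1a1* stood at 0.946 here and 0.490 in the WT column of this comparison, *Col1a2* at 0.863 and 0.490. *Col3a1* stood at 0.155 and 0.0776 and *Lum* at 0.0790 and 0.0192. Of the 2 markers examined, *Postn*, a matrix protein of fibroblasts, was called higher, at 0.496 in WT and 1.46 in KO cells (log2 1.56). The part of the wide spread or of these markers in the members' values was not tested.

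Without *T*, the T-box factor of the streak and tailbud, *Pcdh8* and *Foxb1* were higher on day 2, and *Msgn1* and *Foxb1* were lower on day 3. On day 2, 2 of 3 examined members were higher, beside 5.7% of genes higher and 9.93% lower. The share of higher genes was 8.49% between FPKM 2 and 5, where *Foxb1* lay, and 4.9% between 5 and 20, where *Pcdh8* lay. *Pcdh8* stood at 0.485 in WT and 5.09 in KO cells (log2 3.39), its highest value of all conditions. The difference was larger than between the lines without a KO. *Foxb1* stood at 0.982 and 3.24 (log2 1.72), which lies between the WT values of days 2 and 3. *Tcf15* stood at 3.30 and 3.09 (log2 −0.10). *Foxc1* stood at 0.188 and 0.776, which was its highest value. It was not examined, but was called higher in TPM (log2 2.16). *Msgn1* was listed at 0 in both. This is the second column with a wide spread of ratios, and its part in these values was not tested. On the same day *Axin2* stood at 11.2 in WT and 22.5 in KO cells and *Eomes* at 9.81 and 24.7, both called higher.

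On day 3, 2 of 4 examined members were lower in *T* KO cells and none was higher, beside 3.92% of genes lower and 2.12% higher. *Msgn1* stood at 21.8 in WT and was listed at 0 in KO cells, and *Foxb1* stood at 5.32 and 0.923 (log2 −2.53). *Tcf15* stood at 3.51 and 2.81 (log2 −0.32) and *Pcdh8* at 1.14 and 1.94 (log2 0.78), and neither was called. *Meox1* stood at 0.361 and 0.0605 and *Foxc2* at 0.0509 and 0.226.

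In the *Eomes*/*T* dKO, *Tcf15* and *Pcdh8* were higher on day 2, and *Msgn1* and *Foxb1* were lower on day 3. On day 2, 2 of 2 examined members were higher, beside 3.48% of genes higher and 4.5% lower. The share of higher genes was 7.77% between FPKM 1 and 2, where *Pcdh8* lay, and 2.35% between 5 and 20, where *Tcf15* lay. *Tcf15* stood at 3.17 in WT and 8.64 in dKO cells (log2 1.45). *Pcdh8* stood at 0.466 and 1.01 (log2 1.12), just past the minimum and within the difference between the lines without a KO. The call of *Pcdh8* was lost with a pseudocount of 0.1 (log2 0.97) or 1 (log2 0.46) and in TPM (log2 0.71). *Foxb1* stood at 0.379 in the dKO, beside 0.402 in the *Eomes* KO and 3.24 in the *T* KO. It was not examined, but was called lower in TPM (log2 −1.71), so that 1 member was then higher and 1 lower.

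On day 3, 2 of 4 examined members were lower in the dKO and none was higher, beside 5.53% of genes lower and 5.51% higher. *Msgn1* stood at 22.4 in WT and was listed at 0 in the dKO, and *Foxb1* stood at 5.47 and 0.745 (log2 −2.88). *Tcf15* stood at 3.62 and 1.86 (log2 −0.96), just short of the threshold and past it in TPM (log2 −1.07), and *Pcdh8* at 1.17 and 1.69 (log2 0.53). *Foxc2* stood at 0.617 in the dKO, its highest value of all conditions, against 0.0523 in WT. It was not examined, but was called higher in TPM (log2 3.45). *Tcf15* and *Pcdh8* in the dKO thus stood beside 2.81 and 1.94 in the *T* KO and 0.572 and 0.164 in the *Eomes* KO on the same day.

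**Figure D3:**
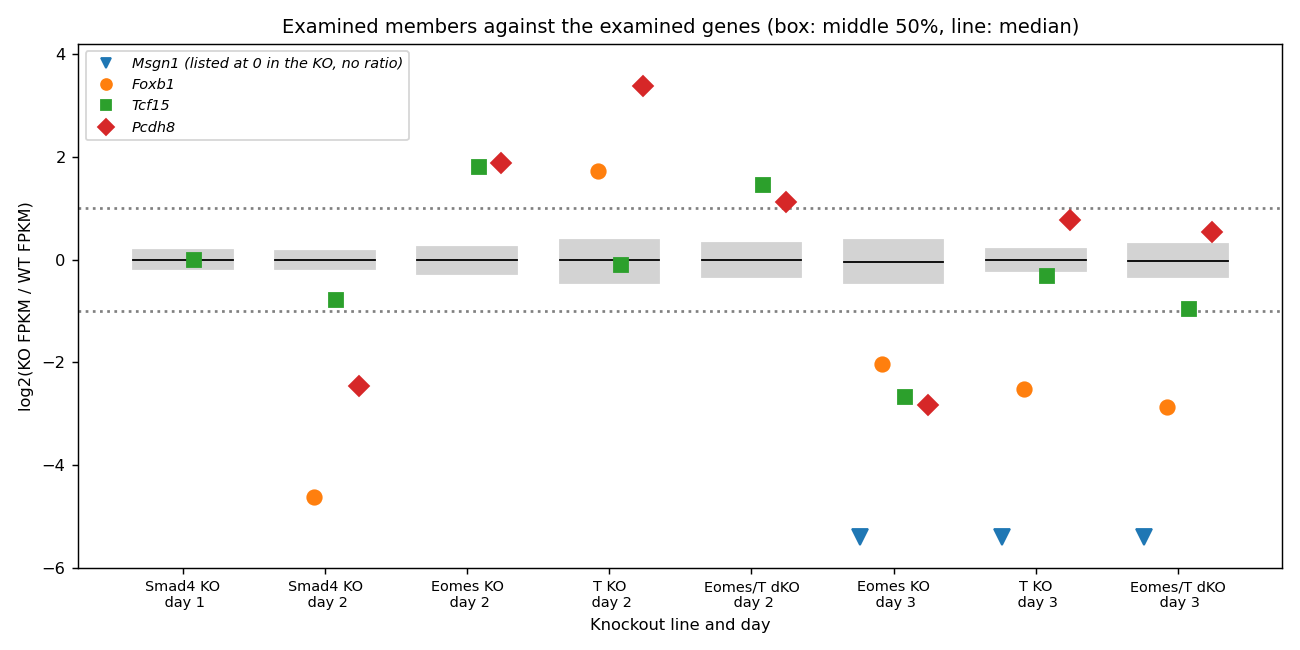
Log2 ratio of KO to WT FPKM (vertical axis) for the examined members in the 8 KO comparisons (horizontal axis), with grey boxes for the middle 50% of all examined genes, a black line at their median and dotted lines at the threshold; triangles below −5 mark *Msgn1*, listed at 0 in the KO and without a ratio. *Pcdh8* and *Tcf15* lie above 0 on day 2 in the *Eomes* KO and below 0 on day 3, and *Foxb1* lies below −2 in all 3 lines on day 3.

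A value of 0 for *Msgn1* on day 3 was unusual for a gene at its WT level. Of the genes above FPKM 10 in WT on day 3, 2 of 5833 were listed at 0 in the *Eomes* KO, 1 of 5739 in the *T* KO and 3 of 5818 in the dKO, and *Msgn1* was among them each time. Above FPKM 5, *Msgn1* and *Mesp1* were the genes listed at 0 in all 3 lines, whose comparisons share the WT samples. In the dKO *Rock1*, a widely expressed kinase, was also listed at 0 on day 3 and stood at 23.3 to 42.3 in the other 13 conditions. A listed 0 may thus stand for a failed estimate, and no fold is given for *Msgn1*.

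**Figure D4:**
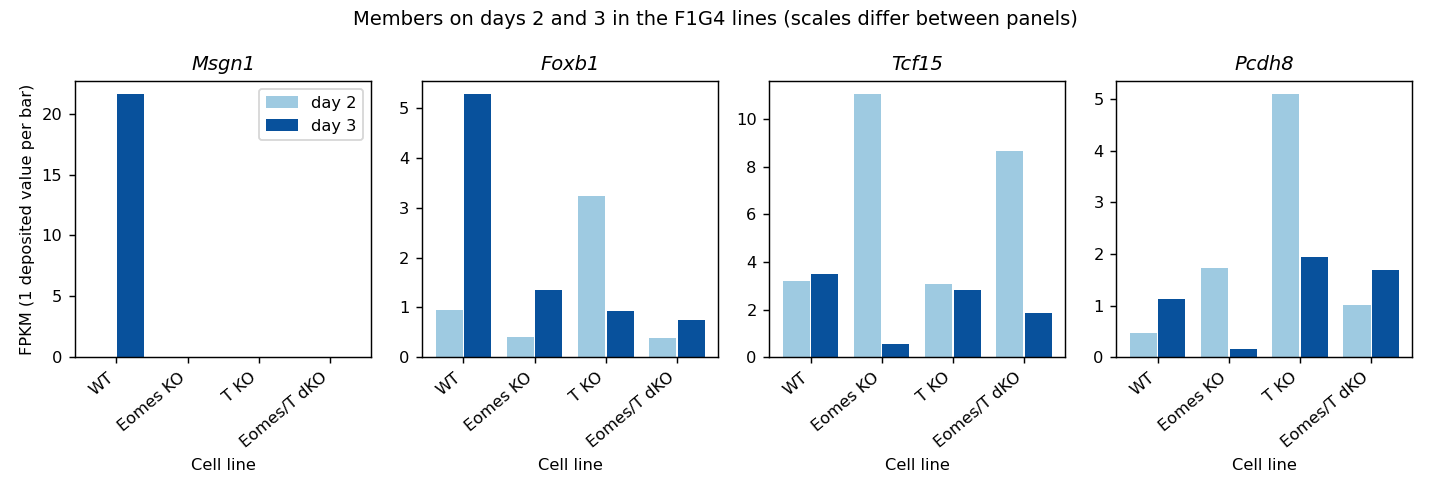
FPKM of the 4 measurable members (panels, each with its own axis starting at 0) in WT, *Eomes* KO, *T* KO and dKO cells on day 2 (light bars) and day 3 (dark bars), with 1 deposited value per bar and no error bar. *Msgn1* has a bar in WT on day 3 only, and *Pcdh8* is highest in *T* KO cells on day 2 at 5.09.

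Other genes of the lineage were read from a list of 17 presomitic and segmentation clock genes, of which 14 exceeded FPKM 1 in at least 1 condition. From day 2 to day 3 of WT differentiation, 8 of 13 examined genes of this list were higher and none was lower (median log2 1.49 against 0.01 over all examined genes). *Cyp26a1* went from 0.0215 to 9.02, *Wnt3a*, a ligand of the streak, from 0.0497 to 1.86, and *Rspo3*, an enhancer of WNT signaling, from 1.22 to 17.5. On day 3, 7 of 13 examined genes were lower in the *Eomes* KO (median −1.40 against −0.04), 9 of 13 in the *T* KO (median −1.47 against −0.01) and 7 of 14 in the dKO (median −1.18 against −0.03). None was higher in either single KO, and in the dKO *Dkk1*, a WNT inhibitor, was. *Rspo3* stood at 0.171 in the *Eomes* KO, 0.0335 in the *T* KO and 0.309 in the dKO, and *Wnt3a* at 0.0149, 0.0389 and 0.0718. *Tbx6*, which stayed below 1, stood at 0.738 in WT and at 0.143, 0.109 and 0 in the same order. *Lfng*, a modifier of Notch, was not called in any of the 3 lines and stood at 2.64 to 3.71 in the KO cells, beside 3.59 in WT.

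**Figure D5:**
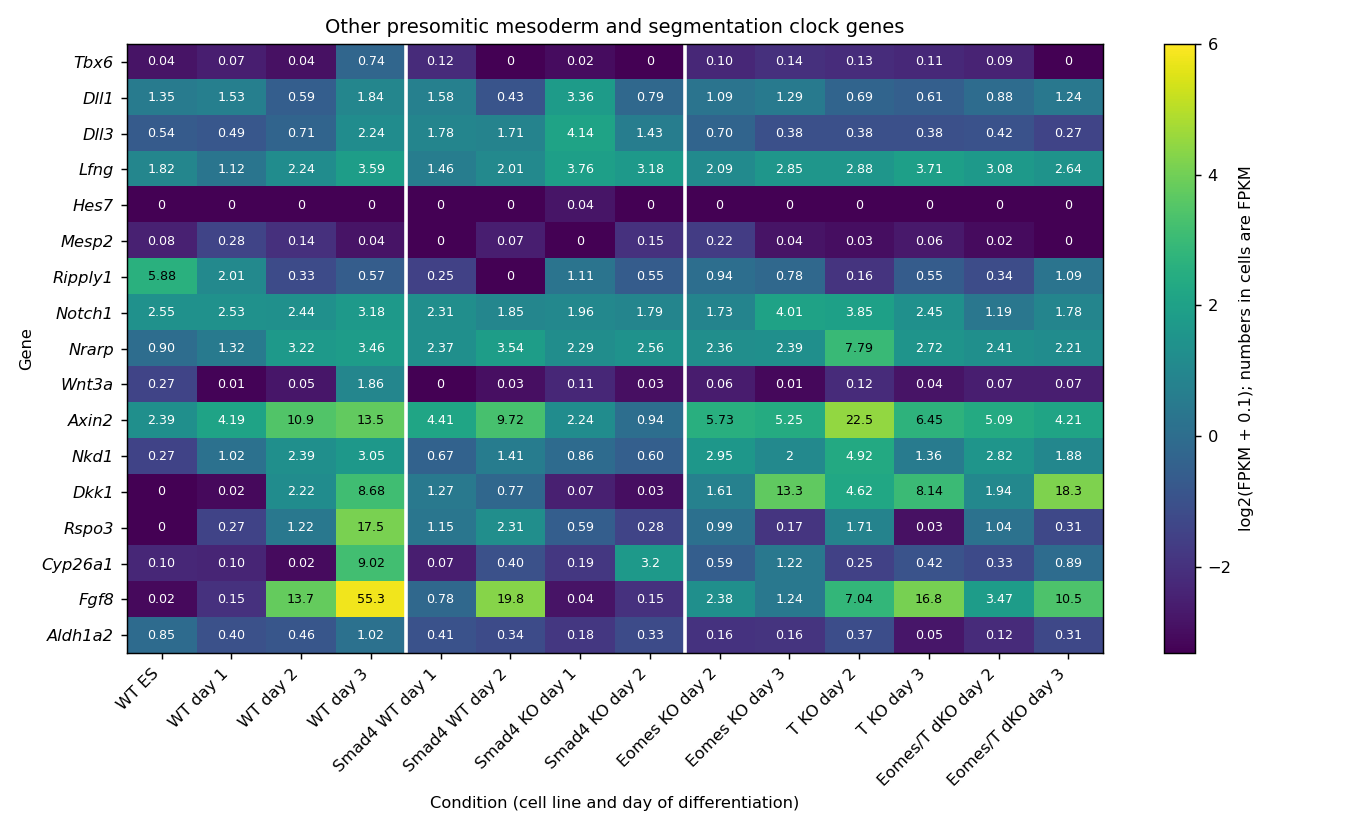
FPKM of 17 other presomitic mesoderm and segmentation clock genes (rows) in the 14 conditions (columns), drawn as for the members with log2(FPKM + 0.1) as colour. *Rspo3*, *Cyp26a1*, *Wnt3a* and *Fgf8* are highest in WT on day 3, whereas *Lfng* varies little, from 1.12 to 3.76.

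On day 2, 1 of 9 examined genes of the presomitic list was lower in the *Eomes* KO (*Fgf8*, 13.6 to 2.38) and none higher. In the *T* KO 1 of 8 was lower and 3 were higher (*Nrarp*, *Dkk1* and *Axin2*). In the dKO 3 of 8 were lower and none higher. Neural genes moved on day 2 as well, with 3 of 6 examined higher in the *Eomes* KO (*Sox1*, 0.200 to 7.17, *Pax6*, 0.100 to 4.54, and *Sox2*, 21.3 to 51.6), 2 of 6 in the dKO (*Sox1* and *Pax6*) and 2 of 5 in the *T* KO (*Sox1* and *Sox2*), and none lower. Markers of several cell types moved beside the members on day 3. Of the nascent mesoderm genes 8 of 8 examined were lower in each of the 3 lines. The median log2 ratios were −5.29 in the *Eomes* KO, −3.42 in the *T* KO and −4.62 in the dKO. These 8 include *T* and *Eomes*, whose lower values in the lines that lack them follow from the deletions. *Mixl1*, *Mesp1*, *Evx1*, *Lhx1*, *Wnt3* and *Gsc* were lower in all 3 lines as well. The summed FPKM of the list was 395 in WT, of which *T* alone held 320, and 8.37, 17.2 and 13.2 in the KO lines. Among lateral and cardiac mesoderm genes *Isl1*, *Bmp4* and *Pdgfra* were lower in all 3 lines, whereas *Hand1* was higher in the *Eomes* KO (21.4 to 62.9) and *Foxf1* was higher in the *Eomes* KO (0.744 to 1.54) and the dKO (0.741 to 1.69). *Foxa2*, an endoderm and streak factor, was lower in the *Eomes* KO (4.71 to 0.0791) and the dKO (4.68 to 0.310). Of 7 listed endothelial genes only *Pecam1* was examined in the *Eomes* KO, and it was higher (3.38 to 8.37). The others did not exceed FPKM 1 in either column, and *Pecam1* had its highest value in ES cells (16.6), so it does not mark endothelium here. Of the neural genes, *Sox1* was higher (0.199 to 5.75) and *Sox3* lower (2.41 to 1.19) among 5 examined in the *Eomes* KO. *Sox1* (0.198 to 6.49) and *Pax6* (0.0488 to 4.03) were higher among 6 in the dKO, and none of 4 was called in the *T* KO. How much of the members' differences goes with these shifts was not tested.

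Among further genes of the somites, *Twist1*, a bHLH factor that is used outside the somites as well, was lower in the *Eomes* KO on day 3 (4.64 to 1.11, log2 −2.07) and in the *T* KO (4.48 to 1.56, log2 −1.52), and was not called in the dKO. On day 2 it was higher in the *T* KO (2.89 to 6.27, log2 1.12) and the dKO (2.77 to 5.75, log2 1.05). *Eya1*, which is used outside the somites as well, was higher in the *Eomes* KO on day 3 (0.520 to 1.52, log2 1.55) and in the *T* KO on day 2 (0.794 to 1.90, log2 1.26). Among 9 other forkhead genes, *Foxd3* and *Foxf1* exceeded FPKM 1. *Foxd3*, a factor of pluripotent cells and neural crest, was higher on day 2 in the *T* KO (2.68 to 15.7, log2 2.55), the *Eomes* KO (2.58 to 5.33, log2 1.05) and the cells labelled *Smad4* KO (2.15 to 8.24, log2 1.94), and on day 3 in the *T* KO (0.977 to 3.05, log2 1.64). Of these comparisons, *Foxb1* was higher in the first, not examined in the second and lower in the other two. *Foxf1* was higher on day 3 in the *Eomes* KO and the dKO, where *Foxb1* was lower.

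The genes most like each measurable member were sought by Pearson r of log2(FPKM + 0.1) over the 14 conditions among 12586 other genes above FPKM 1 in at least 1 condition. Conditions share cell lines, so these values are descriptions. For *Msgn1* they were *Apol9a* (r = 0.997), *Samd3* (0.989) and *Apol9b* (0.981), which are low genes at 1.29, 1.03 and 1.03 on WT day 3. Since *Msgn1* was above 0.1 in that condition only, these rest on a single column, and *Apol9a* and *Apol9b* are near-identical paralogs whose reads may be shared. For *Foxb1* they were *Lgalsl* (0.95), the WNT pathway regulator *Dact1* (0.92) and *Rtl8c* (0.92), all with their highest value on WT day 3. For *Tcf15* they were *Pias2* (0.94), *Dpy30* (0.94) and *Mrps24* (0.93), all highest in ES cells and lowest in the *Eomes* KO on day 3. For *Pcdh8* they were *Setmar* (0.88), *Slc15a4* (0.85) and *Slc7a6* (0.85), of which *Setmar* and *Slc7a6* had their maximum in the *T* KO on day 2, as *Pcdh8* did. Among the members themselves *Foxc1* and *Foxb1* were the most alike (0.94), and *Foxc1* and *Tcf15* the most opposed (−0.63).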

How the data were processed

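RNA-seq of 18 mouse samples was used. The WT stages have 2 samples each by their labels, and each KO and *Smad4* line condition has 1. The legends call values averages of 2 replicates, so how many samples a KO column holds is unclear. The deposited values are FPKM, which the authors computed with Cuffdiff 2.2.1 (multi-read and bias correction, no effective length correction) after FastQC, cutadapt 2.9 and HISAT2 2.1.0 alignment to mm10 with the refSeq annotation and SAMtools 1.9. Libraries were strand-specific ScriptSeq libraries of total RNA, sequenced paired-end. Depth is unknown, and FPKM is sensitive to a few abundant transcripts. Chromatin samples of the series were not analysed here.

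Ratios were taken within a table without a pseudocount. A gene was called at FPKM above 1 in either group and a log2 ratio above 1 or below −1. A gene above 1 in one group and listed at 0 in the other was called without a fold. This follows the rule in the study's methods. List medians and correlations used a pseudocount of 0.1, and 26 names that were duplicated or did not match between tables were left out. All 8 members are named in every condition, the targeted genes beside the comparisons, up to 4 called genes per list with the largest ratios (some less changed genes, such as *Tbx6*, *Lfng* and *Rock1*, were added after their values were seen), and the 3 most similar genes per member. The members and lists were chosen with earlier results of these data known. The call rule was tested on simulated data, with changes planted only in genes well above the FPKM minimum. This says nothing about the calls of members near that minimum. Alternatives were pseudocounts of 0.1 and 1, no FPKM minimum, TPM, and scaling to a median ratio of 1. Python 3.11.15, numpy 2.4.6, pandas 2.3.3 and matplotlib 3.10.9 were used.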

Additional observations from a re-analysis of the deposited data

Results flagged for a closer look

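For 3 members the call in a KO line had the opposite sign on days 2 and 3. Every column is a single value, and the difference between days was not tested. *Tcf15* in the *Eomes* KO had a log2 ratio of 1.80 on day 2 and −2.67 on day 3. *Pcdh8* in the *Eomes* KO had 1.88 on day 2 and −2.84 on day 3. *Foxb1* in the *T* KO had 1.72 on day 2 and −2.53 on day 3. In each case 1 of both days is a column with a wide spread of ratios over all genes, the *Eomes* KO on day 3 or the *T* KO on day 2, whose part in these values was not tested.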

How the results depend on the processing

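Of 85 recalculations of the 17 called member ratios, 79 kept the call and 6 lost it, none changed sign, and those lost were all of *Pcdh8*. Scaling to a median ratio of 1 changed no count of called members. A pseudocount of 0.1 changed 1 count, from 2 to 1 in the dKO on day 2. With a pseudocount of 1, calls went from 2 to 1 in the *Eomes* KO and the dKO on day 2, from 4 to 3 in the *Eomes* KO on day 3 and from 3 to 2 between WT days 2 and 3. Without an FPKM minimum, where values below 1 count, they went from 2 to 4 in the *Eomes* KO and the *T* KO on day 2 and in the *T* KO and the dKO on day 3, from 4 to 6 in the *Eomes* KO on day 3, from 2 to 3 in the dKO and in the cells labelled *Smad4* KO on day 2, from 0 to 1 in the latter on day 1, and in the WT course from 1 to 2, 1 to 3 and 3 to 5 by stage. In TPM, where the minimum of 1 lies at a lower FPKM, calls went from 2 to 4 in the dKO on day 3, 3 lower and 1 higher. They went from 2 to 3 in the *Eomes* KO and the *T* KO on day 2, from 1 to 2 between WT days 1 and 2 and from 3 to 4 between WT days 2 and 3. The dKO on day 2 kept 2 calls in TPM with *Pcdh8* lost and *Foxb1* gained as lower. Over all genes, 536 to 1907 were called per comparison, 176 to 1083 with a pseudocount of 1, 2023 to 3719 without a minimum and 953 to 2895 in TPM. No paired analysis was possible because each table holds 1 column per condition, and for the same reason no replicate could be left out. Values near or below FPKM 1 and listed zeros cannot be weighed without the depth.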
